A study of Homo sapiens with 8 samples.

Results

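The 47 genes described here encode the proteins of secretory granules and of synaptic vesicle release. They were taken as the rows of the count table that carried the name of a granin, a peptide-processing enzyme, a vesicle, SNARE, RAB3, priming or active zone protein, a synaptic scaffold or adhesion protein, or the marker proteins BEX1 and UCHL1. All 47 were found among the 78691 genes of the table. RNA-seq was performed in 2 human prostate cancer lines. C4-2B, a castration-resistant adenocarcinoma line, carried either an empty vector (control) or a lentiviral vector that drives human MYCL and EGFP from the EF1A promoter (MYCL). NCI-H660, a neuroendocrine prostate cancer (NEPC) line, carried an shRNA against MYCL (shMYCL) or a non-targeting shRNA (shCtrl). There were 4 groups of 2 libraries each, 8 in all. Transduced C4-2B cells were selected with puromycin or by sorting, and both lines were collected as cell populations. The knockdown vector is called adenoviral in the series description, while the study's methods describe both an adenoviral and a lentiviral one.

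Neuroendocrine cells store peptides in dense-core granules. Granins help to form the granule, convertases and trimming enzymes turn prohormones into active peptides inside it, and RAB3 proteins, priming factors and SNAREs bring it to the plasma membrane, where synaptotagmins couple fusion to calcium. Neurons use closely related proteins for synaptic vesicles, and chromogranin A (CHGA) and synaptophysin (SYP) are routine tissue markers of NEPC.

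The libraries held 15177071 to 32344170 counts. Both C4-2B control libraries, at 32344170 and 23489171, were deeper than the C4-2B MYCL libraries, at 18278753 and 18090296. MYCL itself had 371 and 320 counts in C4-2B control and 65524 and 70253 in C4-2B MYCL, and it had 1863 and 1602 counts in NCI-H660 shCtrl and 165 and 198 in shMYCL. All 8 libraries therefore matched their labels for the manipulated gene. Summed TPM (a level scaled by gene length and by library total) of 8 adenocarcinoma markers was 2350 to 2358 in C4-2B control, 1543 to 1690 in C4-2B MYCL and 1.63 to 2.69 in NCI-H660, where KLK3, KLK2, HOXB13 and FOLH1 had at most 3 counts. Summed TPM of 8 neuroendocrine markers was 827 to 984 in shCtrl, 505 to 538 in shMYCL and 5.89 to 6.50 in C4-2B, with SRRM4 at 3 counts or fewer in every library. Mitochondrial genes took 9.63% to 10.7% of counts in C4-2B and 3.50% to 3.83% in NCI-H660, and the part of this difference in the results between lines was not tested. The labels call only the C4-2B control libraries biological replicates, so the tests measure the spread between these libraries, which may be technical. In bulk RNA, fewer cells of a kind and less RNA per cell cannot be told apart.

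The granule and synaptic genes took 0.370% to 0.379% of all counts in NCI-H660 and 0.0662% to 0.074% in C4-2B. Mean TPM was higher in NCI-H660 shCtrl than in C4-2B control for 42 of the 47. Near zero was taken as at most 10 counts in every C4-2B library, and 19 members met it: CHGA, CHGB, SCG2, SCG3, SCG5, PCSK1, PCSK2, PTPRN, SYN1, SV2A, SV2B, SYT1, SNAP25, CPLX2, RAB3C, CADPS, RIMS2, NRXN2 and NRXN3. Of these, 15 had at most 3 counts in every C4-2B library, and SCG5, PCSK2, SNAP25, RAB3C and NRXN3 had 0 counts in all 4. A count of 0 allows up to 3 counts, and these limits cover counting error only. In NCI-H660, 40 members had at least 100 counts in every library, and BEX1 was the 1 member with at most 10, at 0 in all 4.

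**Figure D1:**
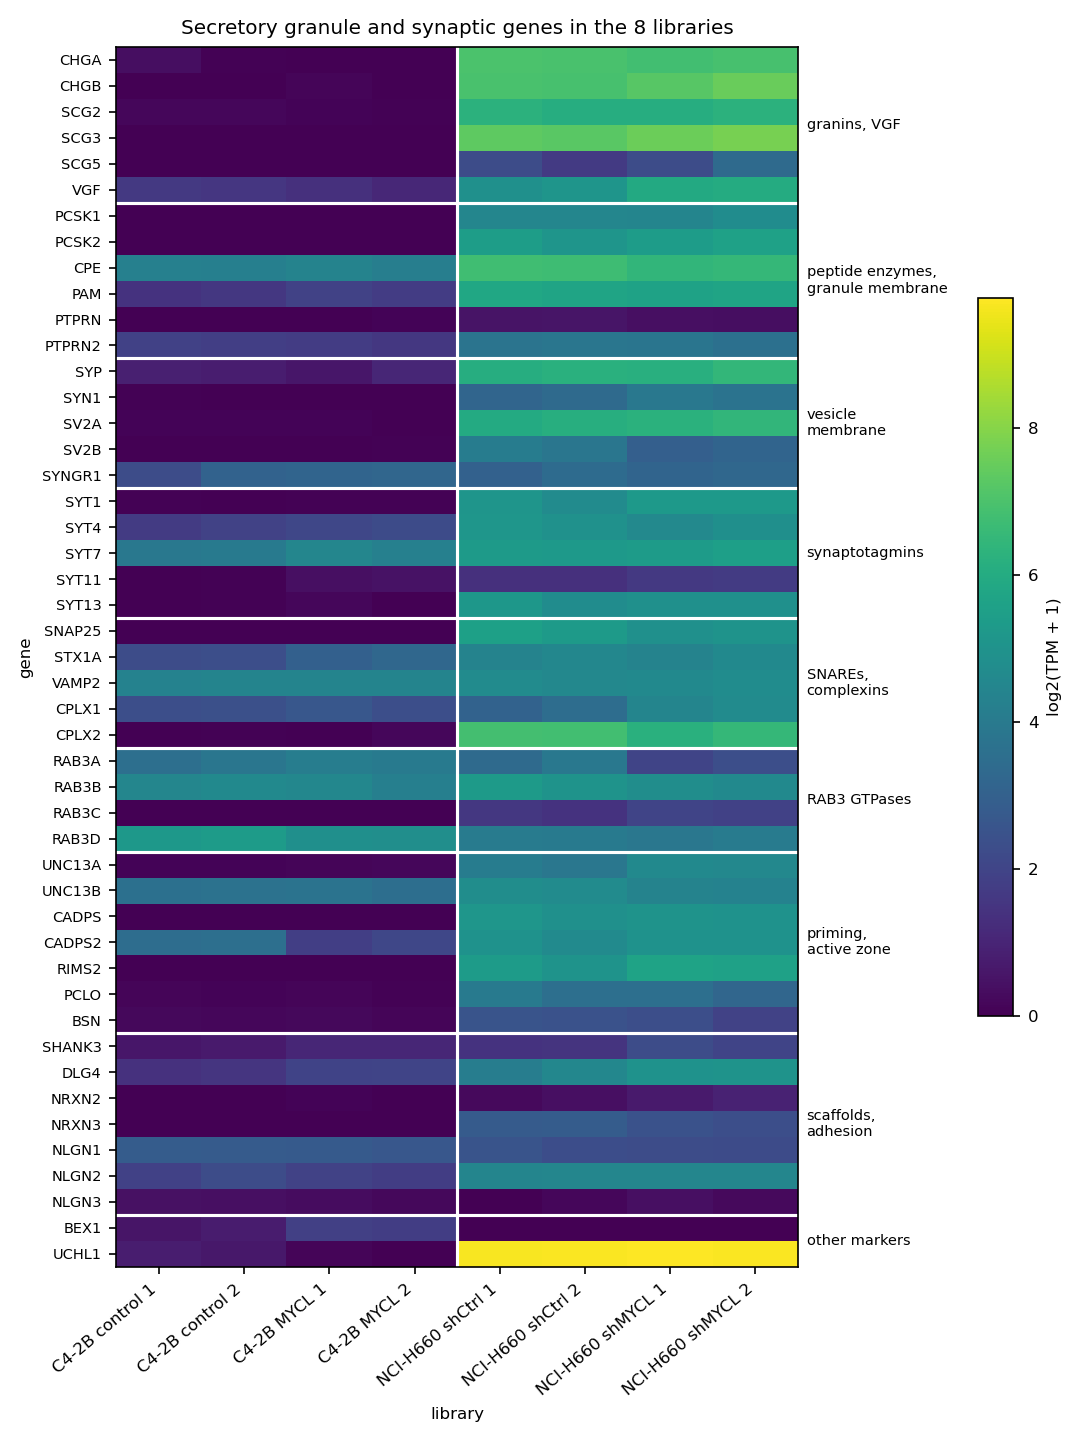
Level of each of the 47 genes (rows, grouped by role) in the 8 libraries (columns), as log2(TPM + 1) from dark (0) to bright. In C4-2B, 19 rows are near zero in all 4 libraries, while in NCI-H660 UCHL1 is the brightest row and BEX1 is dark.

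Among the granule cargo genes, 5 of 6 were near zero in C4-2B. CHGA, a granin and the standard serum and tissue marker of neuroendocrine tumors, had 8, 1, 0 and 0 counts in the control and MYCL libraries of C4-2B. In NCI-H660 its TPM was 126 and 124 in shCtrl and 112 and 122 in shMYCL. CHGB, another granin, had a TPM of 125 and 122 in shCtrl and 149 and 185 in shMYCL, against a single count in all of C4-2B. In C4-2B MYCL neither granin rose above the near-zero limit. SCG3, which links granins to the granule membrane, had the highest TPM of the cargo genes, 163 and 152 in shCtrl and 191 and 219 in shMYCL. SCG2, the precursor of secretoneurin, had a TPM of 75.7 and 67.5 in shCtrl and 67.5 and 77.3 in shMYCL, and the groups overlapped. SCG5, a chaperone of the convertase PCSK2, had 34 and 24 counts in shCtrl and 33 and 82 in shMYCL. A readthrough transcript with ARHGAP11A shares 51.4% of its exon bases, so its counts are uncertain. VGF, a neuropeptide precursor, was the cargo gene seen in both lines, with a TPM of 2.08 and 1.92 in C4-2B control, 1.56 and 1.15 in C4-2B MYCL, 28.9 and 32.7 in shCtrl and 59.7 and 63.6 in shMYCL.

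The enzymes that process peptides split by line. The prohormone convertases PCSK1 and PCSK2, which cut peptide precursors, had at most 2 counts in any C4-2B library and at least 835 in every NCI-H660 library. Carboxypeptidase E (CPE), which trims the cut ends, was present in both, with a TPM of 18.3 and 17.7 in C4-2B control, 19.7 and 17.3 in C4-2B MYCL, 108 and 106 in shCtrl and 85.1 and 89.6 in shMYCL. PAM, which amidates peptides, had a TPM of 1.72 and 2.02 in C4-2B control, 2.75 and 2.35 in C4-2B MYCL, 54.8 and 51.5 in shCtrl and 48.3 and 51.6 in shMYCL. Other convertases were present in C4-2B, with PCSK6 at 285 to 535 counts and FURIN at 295 to 355. Of the 2 receptor-type phosphatases of the granule membrane, PTPRN had at most 16 counts in any library. PTPRN2 was in both lines, at a TPM of 2.04 to 2.73 in C4-2B and 11.3 to 13.3 in NCI-H660.

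The vesicle membrane proteins SV2A, SV2B and SYN1 were near zero in C4-2B. SYP, the vesicle protein used as a NEPC marker, had a TPM of 0.498 to 1.07 in C4-2B and 66.2 to 86.7 in NCI-H660. SYNGR1, another vesicle membrane protein, was the exception of this group, with a TPM of 3.86 and 7.47 in C4-2B control, 7.98 and 8.25 in C4-2B MYCL, 7.11 and 9.75 in shCtrl and 7.82 and 8.66 in shMYCL. Of the synaptotagmins, SYT1, the fast calcium sensor of neurons, was near zero in C4-2B. SYT7, a slower sensor that also acts outside neurons, had a TPM of 14.2 and 15.2 in C4-2B control and 38.6 and 38.0 in shCtrl. The fusion SNAREs were split in the same way. SNAP25 was at 0 counts in C4-2B, while VAMP2, its partner on the vesicle, had a TPM of 19.0 to 20.3 in C4-2B and 22.8 to 26.0 in NCI-H660. Another gene on its strand shares 11.9% of its exon bases. Complexins clamp and help the SNARE complex, and CPLX2 had at most 3 counts in any C4-2B library and a TPM of 115 and 111 in shCtrl. CPLX1 was present in both lines.

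Among the RAB3 GTPases, which tether vesicles to release sites, the adenocarcinoma line was not the lower one throughout. RAB3D, the family member of exocrine glands, had a TPM of 36.3 and 39.7 in C4-2B control and 15.6 and 15.1 in shCtrl, the highest C4-2B level of the 47 genes. An opposite-strand gene overlaps 20.7% of its exon bases, and whether counting used strand is not given in the sources used here. RAB3B had a TPM of 21.4 and 24.0 in C4-2B control and 38.6 and 31.3 in shCtrl, and RAB3A 10.8 and 13.1 against 9.51 and 14.1. RAB3C was at 0 counts in C4-2B. The priming factors divided by paralog. UNC13A and CADPS, the forms best known from neurons, had at most 21 counts in any C4-2B library, whereas UNC13B had a TPM of 10.7 to 12.3 there and CADPS2 10.4 and 11.0 in C4-2B control. The active zone scaffolds PCLO and BSN stayed under a TPM of 0.2 in C4-2B, and RIMS2, which binds RAB3, had a single count there.

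Outside the release machinery, UCHL1, a deubiquitinase abundant in neuroendocrine cells, had the highest TPM of all 47 genes in NCI-H660, 822 and 845 in shCtrl and 871 and 835 in shMYCL. It was followed in shCtrl by SCG3, CHGA, CHGB and CPLX2. In C4-2B the counts of UCHL1 were 13 and 7 without the MYCL vector and 1 and 0 with it, in shallower libraries. The TPM values were 0.710 and 0.529 against 0.0981 and 0. BEX1, a small adaptor protein of neural cells, was found in C4-2B and not in NCI-H660, with 7 counts in each C4-2B control library and 19 and 21 counts with MYCL. It has a close paralog, BEX2, and how shared reads were counted is not given in the sources used here. The adhesion protein NLGN1 was likewise no higher in the neuroendocrine line, with a TPM of 6.24 and 5.95 in C4-2B control and 4.86 and 3.90 in shCtrl, whereas NLGN2 had a TPM of 2.67 and 3.86 against 20.9 and 21.5.

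The line comparison of NCI-H660 shCtrl with C4-2B control was fitted with edgeR over all 8 libraries, and a member was called where its adjusted p was under 0.05 and its log2 fold change reached 1 either way. All 47 were tested, 36 were called higher in NCI-H660 and 4 lower, beside a background of 29.1% and 25.5% of the 19605 genes tested. Of the 47, 23 reached the count limit of the filter in only 1 of the 2 control groups and had to differ. BEX1 and NRXN2 reached it in neither control group, and the fit of the control libraries only did not test them. Cell line, vector and delivery cannot be told apart in this comparison. Against C4-2B control libraries at 0, with 3 counts per library as the floor, CHGB was at least 1184-fold higher in NCI-H660 shCtrl, RIMS2 at least 1047-fold, PCSK2 at least 390.0-fold, PCSK1 at least 366-fold and SV2B at least 336-fold. For SNAP25 the bound was at least 320-fold, for NRXN3 at least 132-fold, for RAB3C at least 69.5-fold and for SCG5 at least 11.7-fold. The 4 members called lower in NCI-H660 were RAB3D (log2 fold change −1.92, SE 0.10), NLGN1 (−1.03, SE 0.14), NLGN3 and BEX1. NLGN3 was among the 23 whose direction was fixed by the filter, and BEX1 passed it only through the C4-2B MYCL libraries. NLGN1 lies just past the fold limit and was not called by DESeq2 (−0.98) or without shCtrl replicate 2 (−0.82). Members present in both lines showed smaller differences, such as VGF (log2 fold change 3.42, SE 0.14), PAM (4.19, SE 0.11), NLGN2 (2.11, SE 0.14) and CPE (1.97, SE 0.09), each called higher. SHANK3 at 1.05 and SYNGR1 at 1.01 were barely past the limit and were 0.89 and 0.80 without C4-2B control replicate 1, and 0.98 and 0.71 without shCtrl replicate 2. SYNGR1 was also not called without C4-2B MYCL replicate 1. Not called were SYT7 (0.69), VAMP2 (−0.22), CPLX1 (0.24), RAB3A (−0.65), RAB3B (0.08), UNC13B (0.54) and CADPS2 (0.81). In TPM the median of all genes stood 0.525 higher in NCI-H660 on the log2(TPM + 1) scale, and 74.4% of called genes were higher, against 53.3% in counts. These shares come from 17847 genes tested by limma and 19605 by edgeR. NLGN1, called lower in counts, was not called in TPM (−0.40).

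MYCL is a basic helix-loop-helix protein that, like MYC, pairs with MAX and binds the E-box CACGTG. The RefSeq promoter windows (GRCh38.p14, 250 bases before to 50 after a start) were searched for this motif, which reads the same on both strands. The table has a window for each annotated start, 56 for the members. Of the 37 members with a window, 3 held it, or 8.11%, against 8.77% of all 27305 genes with a window. They were BEX1, UNC13A and VGF, with the motif 47, 224 and 54 bases before the start. These windows are shown because they are the members that hold the motif. RAB3A, a member called in both lines, is shown in full upstream and holds no CACGTG. The cAMP response element TGACGTCA, which also reads the same on both strands, was searched after the windows had been seen. It was found in 5 members, or 13.5%, against 2.25% of genes, namely CHGA, DLG4, PCSK1, SYN1 and VGF, and lay 54, 104, 77, 159 and 79 bases before the start of its window. By window the share was 8.93% of those of members against 1.85% of all 35116. For DLG4, which has 5 windows, and PCSK1, which has 2, that start is an internal one, 14654 and 895 bases inside the gene as GENCODE annotates it. The CHGA, PCSK1, VGF and SYN1 windows are shown because they belong to granule or vesicle genes, and that of DLG4 because its RNA moved in both lines. CADPS2, CHGB, CPLX1, NRXN2, PTPRN2, RIMS2, SCG2, SNAP25, SYT13 and SYT7 had no window in the table. Capitals mark CACGTG or TGACGTCA, and every window is read on the minus strand except CHGA.
VGF promoter, chr7:101165578-101165688: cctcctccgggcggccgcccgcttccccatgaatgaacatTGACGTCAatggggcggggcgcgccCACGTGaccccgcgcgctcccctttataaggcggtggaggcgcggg
UNC13A promoter, chr19:17688533-17688604: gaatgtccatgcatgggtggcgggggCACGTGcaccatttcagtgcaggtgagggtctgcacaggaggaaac
BEX1 promoter, chrX:103064173-103064258: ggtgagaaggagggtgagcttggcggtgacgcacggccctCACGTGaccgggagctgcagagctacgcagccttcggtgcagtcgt
CHGA promoter, chr14:92923056-92923143: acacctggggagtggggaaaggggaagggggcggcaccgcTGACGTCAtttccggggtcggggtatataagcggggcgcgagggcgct
PCSK1 window at an internal start, chr5:96433278-96433365: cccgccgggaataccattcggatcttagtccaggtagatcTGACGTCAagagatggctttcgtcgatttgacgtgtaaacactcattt
SYN1 promoter, chrX:47619969-47620056: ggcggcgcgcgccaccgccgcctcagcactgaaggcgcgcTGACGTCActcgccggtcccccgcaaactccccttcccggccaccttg
DLG4 window at an internal start, chr17:7205244-7205331: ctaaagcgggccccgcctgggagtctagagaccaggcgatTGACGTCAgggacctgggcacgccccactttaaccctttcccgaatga
RAB3A promoter, chr19:18204043-18204292: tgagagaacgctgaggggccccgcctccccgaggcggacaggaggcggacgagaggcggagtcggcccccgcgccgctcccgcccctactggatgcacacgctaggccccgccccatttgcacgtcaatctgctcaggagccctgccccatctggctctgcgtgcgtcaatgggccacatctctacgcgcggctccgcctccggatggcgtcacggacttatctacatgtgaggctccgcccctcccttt
A match of letters describes the window and is not a binding site. In VGF the CACGTG and the TGACGTCA do not overlap.

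MYCL overexpression in C4-2B asked whether high MYCL alone moves these genes in an adenocarcinoma line. The granins, convertases and SNAP25 stayed near zero in C4-2B MYCL, and a minority of the members with enough counts for a test moved. In the fit of the 4 C4-2B libraries, 26 members passed the filter on low counts, and the 21 removed were the 19 near-zero members, SYT13 and UCHL1. Calls within a line required a Benjamini-Hochberg adjusted p under 0.05 in edgeR's quasi-likelihood test and a log2 fold change of 0.5 or more either way. By these limits 9 of the 26 were called higher and 1 lower, beside 11.8% and 8.12% of the 16866 genes tested. The median log2 fold change was 0.203 over the 26 and −0.002 over all genes. SYT11, UNC13A and BEX1 passed the filter through the MYCL group only, so their direction was fixed by it. SYT11 and BEX1 are among the 9 called higher.

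CADPS2, which primes dense-core granules for fusion, was the 1 member called lower at the fold limit. It had 37.3 and 39.7 CPM (counts scaled to the normalized library size) in control and 9.71 and 13.2 in MYCL. Both MYCL libraries lay far below both controls. The log2 fold change was −1.75 (SE 0.14, adjusted p = 5.55e-05, edgeR's quasi-likelihood test), and the call was kept under every alternative run. The gene lies at chr7:122318411-122886759 on the minus strand (hg38).

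The 3 synaptotagmins tested were called higher, but SYT11 passed the filter through the MYCL group only and so had to be higher. SYT7 had 50.3 and 58.4 CPM in control and 86.3 and 73.6 in MYCL (log2 fold change 0.56, SE 0.10). SYT4, a granule form that does not bind calcium in the usual way, had 6.92 and 8.82 CPM in control and 10.5 and 13.2 in MYCL (0.60, SE 0.18). The groups did not overlap for either gene. SYT11 went from 1 and 5 counts to 25 and 33 (log2 fold change 3.82, SE 0.72). It belonged to the few members that rose from near zero, and its TPM in C4-2B MYCL, 0.305 and 0.394, remained under the 1.55 and 1.56 of NCI-H660 shCtrl.

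STX1A, the plasma membrane SNARE, rose from 3.41 and 3.40 CPM to 6.67 and 7.44 (log2 fold change 1.05, SE 0.21). Its partner VAMP2 had 27.5 and 28.9 CPM in control and 31.3 and 33.7 in MYCL and was not called, and SNAP25 stayed at 0 counts. SYNGR1 rose from 6.95 and 9.37 CPM to 15.9 and 17.6 (1.05, SE 0.16). In TPM, C4-2B control replicate 2, at 7.47, was close to the MYCL libraries, at 7.98 and 8.25, and SYNGR1 was not called. The control replicates had 226 and 223 counts but a TPM of 3.86 and 7.47, a gap wider than their library totals give. Its cause was not tested. RAB3A rose from 11.5 and 13.7 CPM to 18.4 and 18.0 (0.54, SE 0.12), close to the fold limit. RAB3B had 212 and 243 CPM in control and 244 and 211 in MYCL, and the groups overlapped. RAB3D had 123 and 133 CPM against 99.6 and 105, with a log2 fold change of −0.32 (adjusted p = 0.011, edgeR's quasi-likelihood test) that was under the fold limit, and both MYCL libraries lay below both controls.

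The postsynaptic scaffolds SHANK3 and DLG4, which anchor receptors at synapses, rose as well. SHANK3 (chr22:50674415-50733212) had 2.89 and 3.61 CPM in control and 6.13 and 6.69 in MYCL (log2 fold change 0.98, SE 0.23). DLG4 (PSD-95, chr17:7187187-7219841, minus strand) had 4.92 and 4.79 CPM in control and 7.16 and 8.46 in MYCL (0.68, SE 0.19). The adhesion genes beside them were not called, with NLGN1 at 0.09 and NLGN2 at −0.20 on the log2 scale. BEX1 rose at a log2 fold change of 2.13 (SE 0.54) from the counts given above, a direction fixed by the filter.

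With the filter and fit given above, none of the 4 tested cargo and enzyme genes was called by edgeR or DESeq2, and 1 (PAM) had an unadjusted p under 0.05. VGF had 3.81 and 3.49 CPM in control and 3.04 and 2.40 in MYCL (log2 fold change −0.42, SE 0.26). PAM had 5.13 and 5.55 CPM in control and 8.19 and 7.26 in MYCL, a log2 fold change of 0.54 with an adjusted p of 0.0521 in edgeR's quasi-likelihood test. It was called with at least 10 counts in every library (0.54), in the fit of all 4 groups (0.53) and without C4-2B MYCL replicate 2 (0.62). CPE had 36.0 and 34.4 CPM against 41.2 and 38.7 and PTPRN2 10.3 and 9.49 against 9.44 and 8.75. CPLX1 (0.32), UNC13A (1.05, SE 0.50), UNC13B (0.10), PCLO (−0.34), BSN (0.03), SYP (0.20) and NLGN3 (−0.46) complete the 26.

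The calls depended on C4-2B control replicate 1. Without it 3 members were called higher (SYNGR1, SYT11 and STX1A), and BEX1, DLG4, RAB3A, SHANK3, SYT4 and SYT7 were not, with log2 fold changes of 1.89, 0.70, 0.40, 0.82, 0.42 and 0.44. DLG4 was also not called without control replicate 2 (0.66) or MYCL replicate 2 (0.56), SYT4 without MYCL replicate 2 (0.43), SYT7 without MYCL replicate 1 (0.45), and BEX1 without any 1 of the 4 libraries (1.89 to 2.34). The deposited TPM values placed the balance of all genes elsewhere. The median of all genes was −0.142 on the log2(TPM + 1) scale, and 3 of the 20 members tested there were called higher (STX1A, DLG4 and BEX1). SYT11 was not tested there. Of called genes 33.5% were higher in TPM, against 59.2% in counts. These shares come from unlike sets of genes, 14174 tested by limma and 16866 by edgeR. No called member turned its direction under any alternative run.

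MYCL knockdown in NCI-H660 asked the reverse question in cells that express nearly the whole set. Here 45 members were tested, all but NLGN3 and BEX1. By the same thresholds 8 were called higher in shMYCL and 4 lower, beside 7.18% and 8.99% of the 16980 genes tested. The median log2 fold change was 0.013 over the 45 and −0.003 over all genes. A further 10 members had an adjusted p under 0.05 by edgeR's quasi-likelihood test with a change under the fold limit: CHGB (0.44), SCG3 (0.40), SYT1 (0.39) and RIMS2 (0.42) on the higher side, and CPE (−0.30), CPLX2 (−0.49), SNAP25 (−0.45), UNC13B (−0.40), PCLO (−0.42) and BSN (−0.47) on the lower. Beside these values, summed TPM of the 8 neuroendocrine markers was lower in shMYCL, as given above, with INSM1 (log2 fold change −0.65) and SOX2 (−1.04) among those called, and their part in the members' values was not tested.

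**Figure D2:**
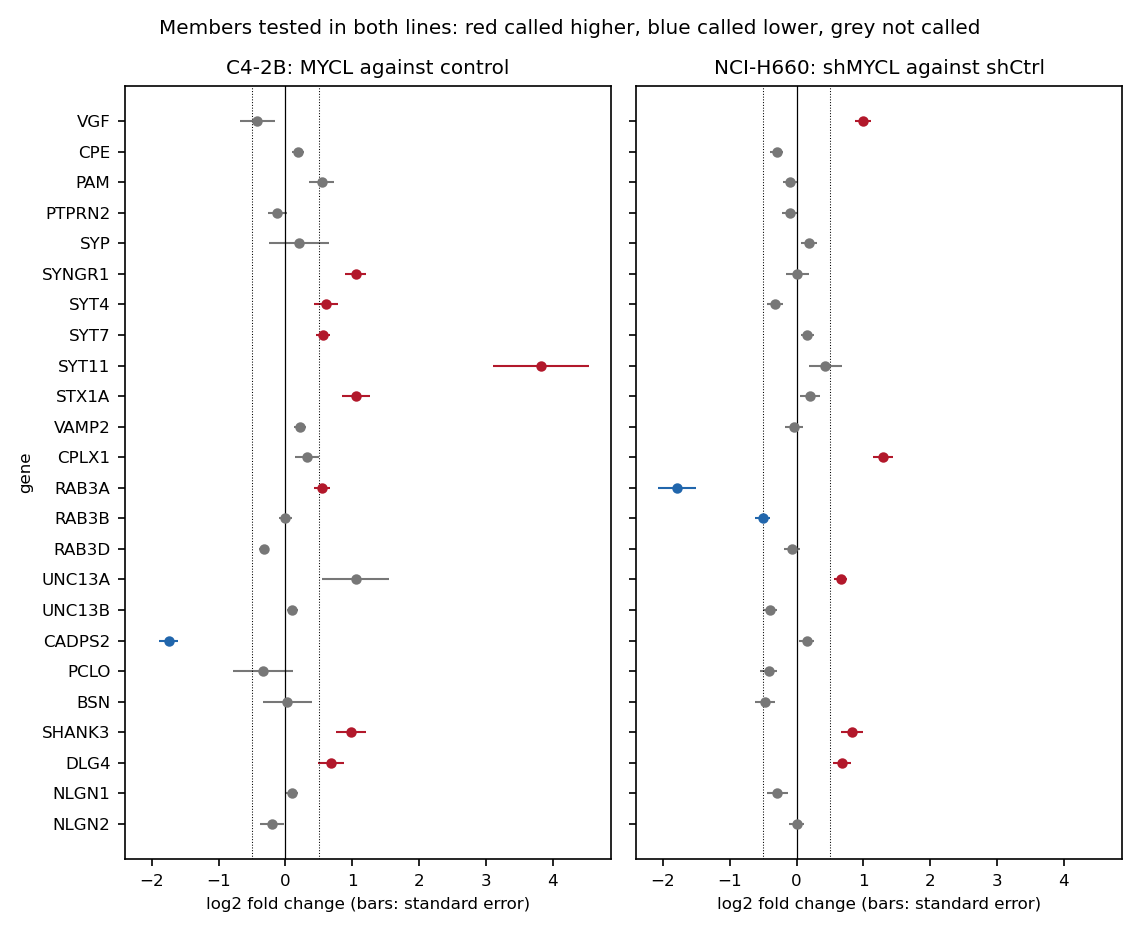
Log2 fold change with its standard error for the 24 members tested in both lines, for MYCL against control in C4-2B (left) and shMYCL against shCtrl in NCI-H660 (right), on a shared axis. Red and blue points were called higher and lower, grey points were not called, and dotted lines mark a log2 fold change of 0.5 either way. CADPS2 is the 1 blue point in the C4-2B panel, and RAB3A lies on opposite sides in the 2 panels.

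Of the 6 granule cargo genes 1 was called higher and 0 lower, with 4 higher and 0 lower at an unadjusted p under 0.05 and the same calls by DESeq2. CHGA had 130.4 and 137 CPM in shCtrl and 119 and 129.7 in shMYCL (log2 fold change −0.11, SE 0.10, adjusted p = 0.50, edgeR's quasi-likelihood test). UCHL1 had 376 and 418 CPM against 414 and 386, and the groups overlapped. SYP had 85.1 and 98.2 CPM against 92.9 and 114, and its groups overlapped too. VGF (chr7:101162509-101165569, minus strand) was the cargo gene that rose, from 39.8 and 47.9 CPM to 84.1 and 89.9 (log2 fold change 0.99, SE 0.12, adjusted p = 3.08e-05, edgeR's quasi-likelihood test). Both shMYCL libraries lay well above both shCtrl libraries. CHGB had 163 and 170.3 CPM in shCtrl and 203 and 250.5 in shMYCL, and SCG3 230.5 and 218 against 292 and 299; both are below the fold limit, and CHGB was called without shMYCL replicate 1 (0.60). SCG5, at 2.01 and 1.30 CPM against 2.17 and 5.24, was separated mainly by shMYCL replicate 2, and its log2 fold change of 1.17 (SE 0.42) was not called. It was called without shCtrl replicate 1 (1.51) and without shMYCL replicate 1 (1.68).

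None of the 6 processing enzymes and granule membrane proteins was called by edgeR or DESeq2, and 1 (CPE) had an unadjusted p under 0.05. PCSK1 had 53.1 and 50.0 CPM in shCtrl and 55.0 and 55.6 in shMYCL, PCSK2 58.7 and 51.1 against 57.7 and 65.9, and PAM 109 and 107.9 against 98.4 and 104. Their log2 fold changes were 0.10, 0.17 and −0.10, with standard errors of 0.11, 0.12 and 0.10.

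RAB3A showed the largest fall among the 45. It had 118 and 202 counts in shCtrl and 34 and 46 in shMYCL, or 6.96 and 10.9 CPM against 2.24 and 2.94. The log2 fold change was −1.79 (SE 0.28, adjusted p = 0.000264, edgeR's quasi-likelihood test). RAB3A lies at chr19:18196784-18204042 on the minus strand, and the opposite-strand gene MPV17L2 overlaps 9.24% of its exon bases. RAB3B had 291 and 248 CPM in shCtrl and 198 and 181 in shMYCL (−0.51, SE 0.11). Without shCtrl replicate 1 its value was −0.38 and without shMYCL replicate 2 it was −0.44, both under the fold limit. RAB3C moved the other way, from 10.3 and 9.31 CPM to 16.1 and 14.6 (0.65, SE 0.16), and was not called without shMYCL replicate 1 (0.59). RAB3D had 37.4 and 38.2 CPM against 33.2 and 38.9 and overlapped. The 4 RAB3 genes thus held 2 calls lower, 1 higher and 1 without a call.

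The complexins parted as well. CPLX1, the minor form in this line, rose from 8.26 and 8.66 CPM to 19.7 and 21.7 (log2 fold change 1.29, SE 0.15, adjusted p = 2.97e-05, edgeR's quasi-likelihood test). CPLX2, the major form, had 305 and 314 CPM in shCtrl and 196 and 243 in shMYCL, and its log2 fold change of −0.49 (SE 0.11) lay just under the fold limit. It passed that limit without shCtrl replicate 1 (−0.51) and without shMYCL replicate 2 (−0.65). CPLX1 lies at chr4:784957-826129 on the minus strand.

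Of the vesicle membrane genes, SV2B fell and SYN1 rose. SV2B had 50.2 and 44.6 CPM in shCtrl and 22.1 and 25.0 in shMYCL (log2 fold change −1.01, SE 0.13), while its paralog SV2A had 147.9 and 170.1 against 183 and 197 (0.26, SE 0.11) and was not called. SYN1, which ties vesicles to the cytoskeleton, had 14.5 and 17.5 CPM against 25.0 and 22.4 (0.57, SE 0.14). It was not called without shCtrl replicate 1 (0.44) or shMYCL replicate 1 (0.50), and another gene on its strand shares 24.9% of its exon bases. Among the priming factors UNC13A rose from 92.1 and 85.0 CPM to 144 and 136 (0.66, SE 0.10). UNC13B had 97.5 and 94.3 CPM against 74.0 and 71.6, and CADPS and CADPS2 were not called (−0.03 and 0.15). None of the 5 synaptotagmins was called by edgeR or DESeq2, with 1 higher and 1 lower at an unadjusted p under 0.05, and SYT4 had 74.8 and 70.4 CPM in shCtrl and 52.6 and 64.0 in shMYCL (−0.32, SE 0.12).

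SHANK3 and DLG4 rose on knockdown too. SHANK3 had 7.08 and 7.90 CPM in shCtrl and 13.8 and 12.8 in shMYCL (log2 fold change 0.83, SE 0.17). By limma on log2(TPM + 1) SHANK3 was not called (0.68, SE 0.21). DLG4 had 31.0 and 39.8 CPM against 57.5 and 56.2 (0.68, SE 0.13). The presynaptic adhesion genes differed in sign. NRXN2 had 6 and 13 counts in shCtrl and 21 and 33 in shMYCL (1.70, SE 0.53), a gene that passed the filter through 1 group only, and NRXN3 fell from 17.7 and 19.4 CPM to 13.2 and 11.0 (−0.62, SE 0.15). NRXN2 was not called by DESeq2 or without shCtrl replicate 1 (1.31) or shMYCL replicate 2 (1.37), and NRXN3 was not called without shMYCL replicate 2 (−0.49). Leaving out a library brought in calls as well, among them PCLO (−0.61) and BSN (−0.76) without shMYCL replicate 1, PCLO (−0.58) and SNAP25 (−0.52) without shCtrl replicate 2, and RIMS2 (0.55) and SYT1 (0.52) without shCtrl replicate 1.

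**Figure D3:**
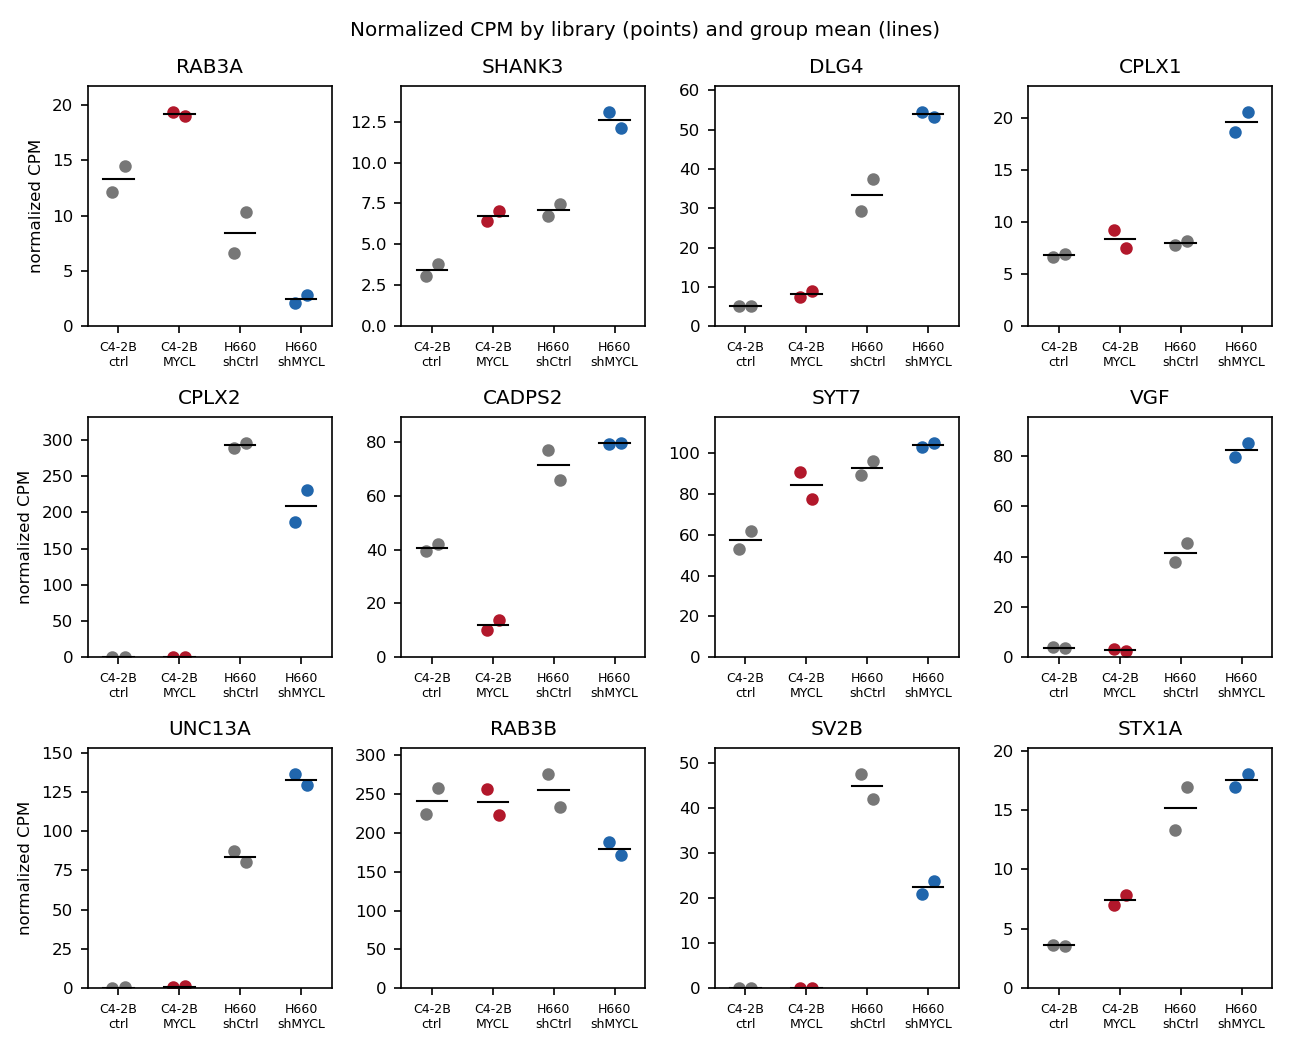
CPM of 12 members in each library (points) with the group mean (line), scaled over all 8 libraries, with axes from 0. RAB3A is higher in the group with more MYCL in both lines, SHANK3 and DLG4 are higher in both manipulated groups, and CADPS2 is lowest in C4-2B MYCL.

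The 2 lines were then compared for what high against low MYCL did, as C4-2B MYCL minus control less NCI-H660 shCtrl minus shMYCL, in a fit of all 8 libraries. The change in MYCL itself was unlike, 8.26 in C4-2B and 3.06 in NCI-H660 on the log2 scale. Of the 24 members tested in both lines, 8 had a higher and 3 a lower effect in C4-2B at an adjusted p under 0.05, beside 10.6% and 9.63% of the 19605 genes tested. The 24 had passed the filter within each line, while the 19605 were not held to that. SYT11 and UNC13A, which are among the 8, passed it in C4-2B through the MYCL group only. Their direction in C4-2B was fixed by it. With at least 10 counts in every library, 8 of 23 members were called higher and 4 lower, beside 2073 and 1961 of 12771 genes. RAB3A, SHANK3 and DLG4 were called within both lines when each line was fitted alone. By limma on log2(TPM + 1), SHANK3 was called in neither line and RAB3A was not called in C4-2B (0.38). In the fit of all 8 libraries RAB3A was not called in C4-2B (0.53, SE 0.19). For RAB3A high MYCL went with more RNA in both, by 0.54 in C4-2B and 1.79 in NCI-H660 on the log2 scale, and the difference of −1.26 (SE 0.31) passed the test. Without shMYCL replicate 1 that difference was −1.08 and was not called. For SHANK3 and DLG4 high MYCL went with more RNA in C4-2B (0.98 and 0.68) and with less in NCI-H660 (−0.83 and −0.68). The differences between lines were 1.81 (SE 0.28) and 1.36 (SE 0.21), with adjusted p-values of 0.000825 and 0.000679 by edgeR's quasi-likelihood test, and both calls were kept without any 1 library.

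CPLX1 differed by 1.60 (SE 0.23) and UNC13A by 1.71 (SE 0.34), and both were called on knockdown. In C4-2B CPLX1 was not called, and UNC13A was called in the fit of all 8 libraries (1.05, SE 0.33) but not in that of the C4-2B libraries alone. CADPS2 differed by −1.60 (SE 0.18, adjusted p = 0.000106, edgeR's quasi-likelihood test) and was called in C4-2B and not in NCI-H660. STX1A (1.25, SE 0.24), SYT7 (0.72, SE 0.14), SYT11 (4.26, SE 0.67) and SYNGR1 (1.06, SE 0.27) had their call in C4-2B only. SYNGR1 was not called without C4-2B control replicate 1 (0.84) or shMYCL replicate 2 (0.95). RAB3B differed by −0.51 (SE 0.15) and was not called without any of 4 single libraries: C4-2B control replicate 2, C4-2B MYCL replicate 2, shCtrl replicate 1 (each −0.40) and shMYCL replicate 2 (−0.46). VGF, with high-MYCL effects of −0.42 in C4-2B and −0.99 in NCI-H660, differed by 0.56 (SE 0.23, adjusted p = 0.106, edgeR's quasi-likelihood test), which did not pass, and was called without shCtrl replicate 2. SYT4, with effects of 0.60 and 0.32, did not pass either (0.28, SE 0.21).

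Genes of the same pathways outside the 47 were counted from 4 lists, to be read beside the shares of all genes called higher and lower, 11.8% and 8.12% in C4-2B and 7.18% and 8.99% in NCI-H660. Of the exocytosis machinery, 48 genes were tested in C4-2B, with 14 called higher and 4 lower, the latter a share near that of all genes. The largest changes were those of RIMS4, a small RIM protein, at 3 and 1 counts against 23 and 14 (log2 fold change 3.77), SYT17 (2.86) and the complexin CPLX3 (2.47), which all passed the filter on low counts through the MYCL group only and so had to be higher. In NCI-H660, 48 were tested, with 6 called higher and 7 lower, and the synaptotagmin SYT6 (−1.90), the GTPase RAB37 (−1.38) and the RAB27 effector SYTL5 (1.35) moved most. The list medians were 0.16 in C4-2B and 0.10 in NCI-H660.

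Of the neuropeptides and processing genes, 14 were tested in C4-2B, with 6 called higher and 0 lower by edgeR's quasi-likelihood test, 5 and 0 by DESeq2, and 1 lower at an unadjusted p under 0.05. CALCA, the calcitonin precursor, had 1 and 0 counts against 21 and 26. AGT, angiotensinogen, had 60 and 57 counts against 217 and 240 (log2 fold change 2.60), and PCSK1N, an inhibitor of PCSK1, 6 and 6 against 15 and 19 (2.11). CALCA and PCSK1N passed the filter through the MYCL group only, and their direction was fixed by it. In NCI-H660 3 of 22 were called higher and 1 lower. NTS, neurotensin, had 452 and 511 counts in shCtrl and 1449 and 1650 in shMYCL (1.89), GAL, galanin, 7 and 12 against 36 and 31 (2.01, a gene that passed the filter through shMYCL only), and ICA1L, of the granule-associated ICA1 family, 520 and 430 against 621 and 611 (0.57).

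Of the synaptic scaffold and adhesion genes, 2 of 28 were called higher and 4 lower in C4-2B, where the adhesion gene SLITRK3 (−1.49) and the scaffold DLG2 (−1.12) fell and PPFIA4, a liprin, rose (0.70). In NCI-H660, 1 of 33 was called higher, PPFIA2 (1.79), and 5 lower, among them PPFIA4 (−1.31) and SLITRK5 (−1.23). PPFIA4 was thus higher in the group with more MYCL in both lines, as RAB3A was. Of the voltage-gated calcium channel subunits, which supply the calcium for release, 3 of 7 were called higher in C4-2B, CACNA1I (1.85), CACNA1H (1.82) and CACNB1 (0.95), and 1 of 13 in NCI-H660, CACNA1D (0.73), with 0 lower in either by edgeR or DESeq2. DESeq2 called 2 higher in C4-2B, and CACNA1I and CACNA1H passed the filter there through the MYCL group only, CACNA1H at an adjusted p of 0.0492 in edgeR's quasi-likelihood test. At an unadjusted p under 0.05, 0 channel genes were lower in C4-2B and 2 in NCI-H660. Of the 8 adenocarcinoma markers, 2 were called lower in C4-2B MYCL and 0 higher by edgeR or DESeq2, with 5 lower and 1 higher at an unadjusted p under 0.05. KLK3 (−0.52) was among those called, while TMPRSS2 had a TPM of 117 and 125 in control and 153 and 136 in MYCL.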

How the data were processed

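Poly(A) RNA-seq of 8 libraries of 2 established cell lines was used, 2 libraries in each of 4 groups, as paired-end reads. The authors deposited estimated counts per gene (not all whole numbers) and TPM values, which their methods describe as counts divided by gene length and scaled; per the labels' processing notes the build is hg38, and the aligner and counting tool are not given in the sources used here. Counts were rounded and normalized by TMM, and genes were filtered with filterByExpr and tested with edgeR 4.0.16's quasi-likelihood test (R 4.3.3), with Benjamini-Hochberg adjustment over all genes tested. Each line was fitted alone, and the lines were compared in a fit of all 8 libraries. The TPM values cover 65535 genes and the counts 78691, so shares called in TPM and in counts are over unlike sets of genes. Replicates varied with a biological coefficient of variation of 0.0829 (C4-2B) and 0.0965 (NCI-H660). For one gene, 2 libraries against 2 allow no exact permutation p below 0.33. Library totals of 15177071 to 32344170 counts set the precision of low counts.

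Members and gene lists were chosen with earlier results of these data known. Values are given for members called within a line, members of role groups testable in both lines, and the 5 highest by TPM in shCtrl, and for at most 3 called genes of each related list. The alternatives included relative log expression size factors, DESeq2 1.42.0, other filters and fold limits, a replicate block, a fit of all groups or of the control libraries, leaving out each library, and limma 3.58.1 on log2(TPM + 1) and log2(TPM + 0.1). In a test on simulated counts, 200 genes were shifted by 1.5 on the log2 scale, of which edgeR called 185 (C4-2B, 10 false), 195 (NCI-H660, 16 false), 178 (NCI-H660 shCtrl against C4-2B control, 18 false) and 161 (difference between lines, 13 false). The shifted genes left out those of lowest mean CPM, and all groups had the same mean before the shift. Recovery of smaller changes, such as many called within a line, and of genes near zero in a group was not tested. Replicate libraries differed beyond sampling noise. Positions came from GENCODE 44, where all 47 members were found by identifier. Some marker genes are not reported here.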

Additional observations from a re-analysis of the deposited data

Results flagged for a closer look

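The effect of high against low MYCL differed between C4-2B and NCI-H660 for 11 of the 24 members tested in both lines, at an adjusted p under 0.05 by edgeR's quasi-likelihood test of the difference itself. Values are C4-2B minus NCI-H660 on the log2 scale, and the shares of all genes called are given above. The effect was higher in C4-2B for the vesicle protein SYNGR1 (1.06), the synaptotagmins SYT7 (0.72) and SYT11 (4.26), the SNARE STX1A (1.25), the complexin CPLX1 (1.60), the priming factor UNC13A (1.71) and the scaffolds SHANK3 (1.81) and DLG4 (1.36). It was lower in C4-2B for RAB3A (−1.26), RAB3B (−0.51) and the priming factor CADPS2 (−1.60). SYT11 and UNC13A passed the filter on low counts in C4-2B through the MYCL group only, so their direction there was fixed by it. MYCL itself changed by 8.26 in C4-2B and by 3.06 in NCI-H660. Line, vector, and direction and size of the manipulation cannot be told apart in this difference.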

How the results depend on the processing

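With 2 libraries a group, single calls near a limit moved. In C4-2B 9 of 26 members tested were called higher and 1 lower. Leaving out 1 library gave 3 to 7 higher (3 without control replicate 1) and 1 lower. Of 20 members tested, limma called 3 higher on log2(TPM + 1) and 3 on log2(TPM + 0.1). Without a filter it called 2 of 42 higher. SYT11 was not among the 20. A fold limit of 1 left 4 higher, and a fit of all 4 groups or no fold limit gave 2 lower. In NCI-H660 8 were called higher and 4 lower, and leaving out 1 library gave 7 to 9 and 3 to 6. limma called 4 and 2 of 43 members tested with either pseudocount. NRXN3, RAB3B, RAB3C, SHANK3 and SYN1 were not called there, and NRXN2 was not tested. Without a filter limma called 0 and 0, with 18 members at an unadjusted p under 0.05 and 1 gene of all 29413 called. The fit of all groups gave 5 higher, without NRXN2, RAB3C and SYN1, and did not call NRXN3 lower. A fold limit of 1 gave 2 and 2, and no fold limit gave 10 lower. Between lines, of 36 higher and 4 lower, a minimum of 10 counts in every library kept 14 and 1, since it removes near-zero genes. limma called 1, 2 and 1 lower on log2(TPM + 1), log2(TPM + 0.1) and unfiltered values, and a fold limit of 2 left 2 lower. Leaving out 1 library gave 34 to 36 and 3 to 4. For the difference between lines (8 and 3), limma gave 5 higher with the smaller pseudocount and 3 and 1 unfiltered, and leaving out 1 library gave 7 to 9 and 2 to 3. In that comparison 35.3% of all calls were higher in TPM against 52.3% in counts, over 17847 genes tested by limma and 19605 by edgeR. Apart from the filter and limits, the cause was not tested. No call turned its direction.

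The deviations of same-numbered libraries had a correlation of 0.0328 in C4-2B and 0.0457 in NCI-H660. The labels do not say whether such libraries share more than a number, and the main fits did not pair them. With a replicate block 9 higher and 1 lower were called in C4-2B and 9 and 5 in NCI-H660, where CPLX2 (−0.50) and SCG5 (1.09) were added. Between lines the block gave 35 and 4, without SYNGR1 (0.99), and for the difference between lines 8 and 3.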
